A study of Mus musculus with 16 samples.

Results

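The genes described here are 9 that build and maintain the postsynaptic side of the neuromuscular junction or belong to its acetylcholinesterase: Agrn, Lrp4, Musk, Dok7, Rapsn, Ache, Colq, Erbb3 and Etv5. They were selected by gene symbol, and all 9 were found among the 21011 genes measured in skeletal muscle and the 38933 measured in cortical bone. The mice were female C57BL/6 animals, 18 months old at the start, and no engineered allele is named for any of them. They received by oral gavage either vehicle (VEH, a mixture of ethanol, Solutol and water) or BAY2416964 (BAY), an antagonist of the aryl hydrocarbon receptor (AhR), dosed at 30 mg/kg, 5 days in each week, over 8 weeks. Bulk RNA-seq was performed on whole tibialis anterior (TA) muscle and on collagenase-digested cortical bone shafts, each from 4 VEH-treated and 4 BAY-treated mice with 1 library per mouse. Values are given as CPM, the reads of a gene scaled to a common library total.

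The junction is organised from the nerve. Agrin, a proteoglycan released by the motor axon and made in other forms by muscle, binds LRP4 on the muscle membrane, and LRP4 then activates the receptor tyrosine kinase MuSK. DOK7 is the cytoplasmic adaptor that sustains MuSK activity, and rapsyn, the product of Rapsn, anchors acetylcholine receptors in the clusters that follow. Acetylcholinesterase (Ache) ends each transmission by breaking down acetylcholine, and its collagen tail (Colq) fastens it to the synaptic basal lamina and binds MuSK. ErbB3 is a receptor for neuregulin that is abundant in Schwann cells, and ETV5 is an Ets transcription factor needed for transcription at the synapse. In adult fibres most of these transcripts come from the few nuclei under the synapse, so whole muscle holds little of them.

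In skeletal muscle, each library held 6131904 to 9262256 reads assigned to genes, and in cortical bone 930310 to 6951845. Markers of muscle fibres summed to 113000 to 189000 CPM in the 8 muscle libraries, and all 10 were measured. None of 5 motor neuron markers (Chat, Slc18a3, Slc5a7, Mnx1 and Isl1) had values among the muscle genes used here. Muscle VEH replicate 3, whose column name carries a word for replacement, stood apart from the other 7 libraries. Its 7 adipocyte markers summed to 328 CPM against 38.6 to 56.3 in the other libraries, its 5 fibroblast markers to 173 CPM against 49.1 to 75.6, and its 10 Schwann cell markers to 75.5 CPM against 27.5 to 50.2. Member and list results that change without this library are given both ways.

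In muscle of BAY-treated mice, Agrn and Ache were higher at an unadjusted *P* value under 0.05 by limma, by 0.71 and 0.47 on the log2 scale, and no member was lower at that level. Of the 9 members, 5 had a mean above that of VEH-treated muscle and 4 a mean below it. No member reached a fold change of 2. Among all muscle genes, 9.79% were under that *P* value in either direction and 6.71% were so with a higher level in BAY-treated mice, while 2.43% also reached a fold change of 2. The first 2 shares were 13.5% and 9.68% among the 6197 protein-coding genes with read numbers in the range of the members. No gene of the table passed an adjusted *P* value of 0.05 by limma on the deposited values, with 2056 genes under an unadjusted 0.05. The adjusted threshold was passed by 25 genes with voom on recovered reads, 40 without the trend, 23 with log2(CPM + 1), 35 with log2(CPM + 0.1) and 2 with a filter at a mean of 1 CPM. The median log2 fold change over all muscle genes was 0.06, and over the 9 members it was 0.21. After correction for the GC content of transcripts these medians were 0.01 and -0.01, and without VEH replicate 1 they were -0.01 and 0.12. In bulk tissue, fewer cells or nuclei of a kind and less RNA in each cannot be told apart.

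**Figure D1:**
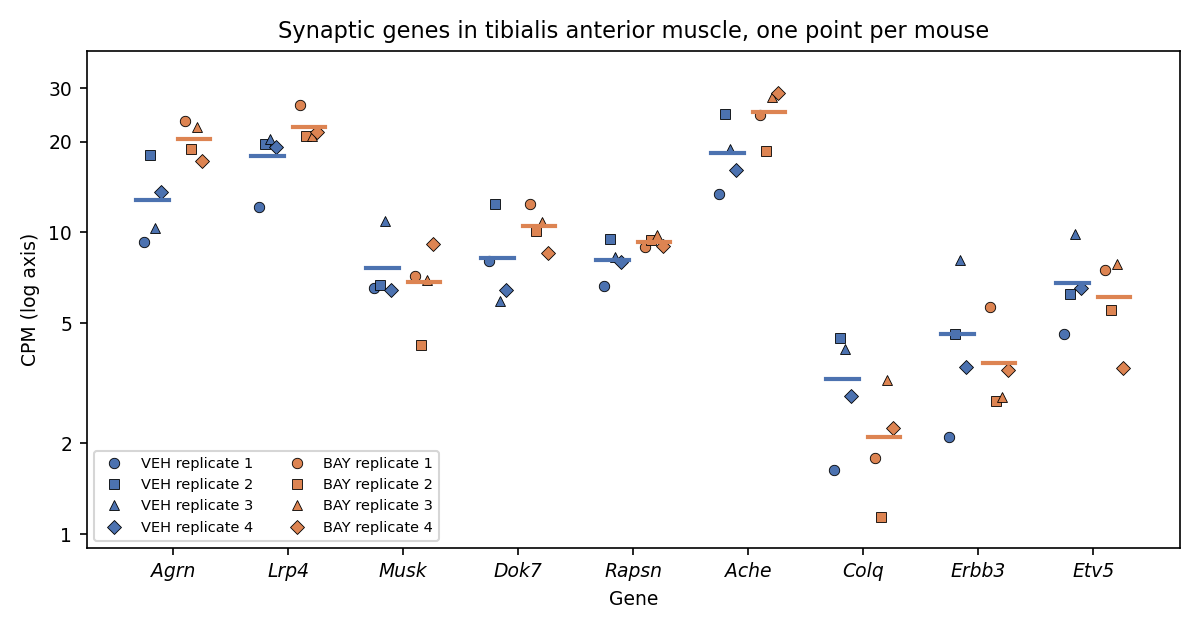
CPM of the 9 genes in TA muscle on a log axis, with 1 point per mouse, a symbol for each replicate number and a bar at the group mean (blue VEH, orange BAY, n = 4 each). BAY points of Lrp4 all lie above the VEH points, those of Agrn all lie above VEH replicates 1, 3 and 4, and Colq points lie mostly lower in BAY.

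Agrn (ENSMUSG00000041936, minus strand, chr4:156249747-156281946 in mm39) gave 9.31, 18.1, 10.3 and 13.6 CPM in VEH replicates 1 to 4, and 23.4, 18.9, 22.3 and 17.2 CPM in BAY replicates 1 to 4. The groups overlapped only through VEH replicate 2, which exceeded BAY replicate 4, and 3 of the 4 BAY values were above every VEH value. The mean was 12.8 ± 3.98 CPM in VEH and 20.5 ± 2.87 CPM in BAY (SD, n = 4 each), a 1.64-fold difference with a log2 fold change of 0.71 (SE 0.20, 95% confidence interval 0.28 to 1.15). The unadjusted *P* value by limma was 0.00341 and the Benjamini-Hochberg adjusted value 0.311, and the exact permutation test over the 70 assignments of the 8 libraries gave *P* = 0.0571. With any single library left out, the log2 fold change lay between 0.58 and 0.90, and the unadjusted *P* value by limma did not exceed 0.0156.

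The junction depends on which agrin is made. The neural forms that drive receptor clustering hold inserts from the exons of 24 and 33 bases, and muscle makes mainly forms without them. The exon of 12 bases gives another insert, which affects binding of heparin. The gene-level values used here sum all forms, so they do not tell neural from non-neural agrin. The 3 small exons in the GENCODE M39 annotation are shown because they mark the part of the gene that these values cannot resolve. Capitals mark the exon and lower case the 10 bases of intron on each side, from 5′ to 3′ on the minus strand.
Agrn exon of 12 bases, chr4:156254003-156254014, in 7 of 15 annotated transcripts: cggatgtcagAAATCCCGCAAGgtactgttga
Agrn exon of 24 bases, chr4:156253003-156253026, in 6 of 15 annotated transcripts: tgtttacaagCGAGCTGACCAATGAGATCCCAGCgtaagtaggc
Agrn exon of 33 bases, chr4:156252234-156252266, in 3 of 15 annotated transcripts: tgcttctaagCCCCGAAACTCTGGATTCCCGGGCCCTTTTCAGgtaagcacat

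Lrp4 (ENSMUSG00000027253, chr2:91287856-91344125), the agrin receptor, was the only member whose groups did not overlap in muscle. It gave 12.1, 19.7, 20.4 and 19.2 CPM in VEH replicates 1 to 4 and 26.4, 20.9, 20.9 and 21.5 CPM in BAY replicates 1 to 4. VEH replicate 1 was far below the other VEH libraries and BAY replicate 1 far above the other BAY libraries, and the remaining 6 libraries lay between 19.2 and 21.5 CPM. Among all muscle genes, 5.73% had groups that did not overlap, and 7.37% of the protein-coding genes with read numbers like the members'. The log2 fold change was 0.35 (SE 0.17) with an unadjusted *P* value of 0.0646 and an adjusted value of 0.548 by limma, and the exact permutation *P* was 0.0286, the smallest that 4 against 4 libraries allow. Without VEH replicate 1 the log2 fold change fell to 0.18 (unadjusted *P* = 0.234 by limma), and without VEH replicate 3 it was 0.43 (unadjusted *P* = 0.0348 by limma).

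Musk (ENSMUSG00000057280, chr4:58285960-58374304), the kinase that agrin and LRP4 switch on, gave 6.52, 6.69, 10.9 and 6.44 CPM in VEH and 7.16, 4.24, 6.97 and 9.12 CPM in BAY. VEH replicate 3 was the highest of all 8 libraries and BAY replicate 2 the lowest. BAY differed from VEH by -0.17 on the log2 scale (SE 0.25, 95% confidence interval -0.72 to 0.38, unadjusted *P* = 0.522 by limma). It was 0.02 without VEH replicate 3 and 0.05 without BAY replicate 2.

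Dok7 (ENSMUSG00000044716, chr5:35214110-35245184), the adaptor that keeps MuSK active, gave 8.03, 12.4, 5.94 and 6.44 CPM in VEH and 12.4, 10.1, 10.8 and 8.55 CPM in BAY. All 4 BAY libraries were above the VEH median, but VEH replicate 2 was as high as the highest BAY library. The log2 fold change was 0.40 (SE 0.23, 95% confidence interval -0.09 to 0.89) with an unadjusted *P* value of 0.101 by limma. Without VEH replicate 2 it was 0.62 (unadjusted *P* = 0.00885 by limma), and without VEH replicate 3 it was 0.27 (unadjusted *P* = 0.255 by limma), the lowest value with any single library left out.

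Rapsn (ENSMUSG00000002104, chr2:90865965-90876075), the scaffold under the receptors, gave 6.63, 9.48, 8.31 and 7.99 CPM in VEH and 8.94, 9.46, 9.80 and 8.98 CPM in BAY. The BAY values lay within a narrow range, and VEH replicate 2 reached into it. Its log2 fold change was 0.21 (SE 0.17, 95% confidence interval -0.15 to 0.57, unadjusted *P* = 0.231 by limma), and 0.12 without VEH replicate 1 (unadjusted *P* = 0.496 by limma).

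Ache (ENSMUSG00000023328, chr5:137285781-137292729), the enzyme that removes acetylcholine, gave 13.4, 24.7, 18.9 and 16.1 CPM in VEH and 24.5, 18.6, 28.1 and 29.0 CPM in BAY. BAY replicates 3 and 4 were above every VEH library, while BAY replicates 1 and 2 lay within the VEH range and VEH replicates 2 and 3 within the BAY range. The mean was 18.3 ± 4.83 CPM in VEH and 25.1 ± 4.74 CPM in BAY (SD, n = 4 each), a 1.39-fold difference. The log2 fold change was 0.47 (SE 0.20) with an unadjusted *P* value of 0.0308 and an adjusted value of 0.466 by limma, and the exact permutation *P* was 0.143. The unadjusted *P* value by limma was 0.112 without VEH replicate 1, 0.0758 without VEH replicate 4, 0.0589 without BAY replicate 1, 0.09 without BAY replicate 3 and 0.0969 without BAY replicate 4, with log2 fold changes of 0.33 to 0.63 over all single libraries left out.

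Colq (ENSMUSG00000057606, minus strand, chr14:31245039-31313301), the collagen tail of that enzyme, had the fewest reads of the members, 7 to 38 per library. It gave 1.63, 4.46, 4.10 and 2.86 CPM in VEH and 1.79, 1.14, 3.23 and 2.24 CPM in BAY. No BAY library was above the VEH median, yet the lowest VEH library, replicate 1, was below 3 of the BAY libraries. Its log2 fold change was -0.63 (SE 0.41, 95% confidence interval -1.51 to 0.24, unadjusted *P* = 0.143 by limma). Without VEH replicate 1 it was -0.93 (unadjusted *P* = 0.0346 by limma), without VEH replicate 3 -0.49 (unadjusted *P* = 0.292 by limma) and without BAY replicate 2 -0.37 (unadjusted *P* = 0.373 by limma).

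Erbb3 (ENSMUSG00000018166, minus strand, chr10:128403392-128425522), the neuregulin receptor, gave 2.10, 4.60, 8.10 and 3.58 CPM in VEH and 5.64, 2.77, 2.84 and 3.51 CPM in BAY. VEH replicate 3, the library with the highest summed Schwann cell markers, had the highest value, and VEH replicate 1, the library with the lowest, had the lowest value. Over the groups, the 10 Schwann cell markers summed to 27.5 to 75.5 CPM in VEH and 31.6 to 50.2 CPM in BAY, with 6 of 10 higher in BAY and none at an unadjusted *P* value under 0.05 by limma. Their part in the Erbb3 values was not tested. The log2 fold change of Erbb3 was -0.21 (SE 0.38, unadjusted *P* = 0.587 by limma), and 0.12 without VEH replicate 3.

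Etv5 (ENSMUSG00000013089, minus strand, chr16:22200059-22258470), the Ets factor of synaptic nuclei, gave 4.61, 6.26, 9.87 and 6.52 CPM in VEH and 7.52, 5.52, 7.87 and 3.56 CPM in BAY. The BAY values lay inside the VEH range except for BAY replicate 4, the lowest of the 8. Between the groups Etv5 differed by -0.17 on the log2 scale (SE 0.29, unadjusted *P* = 0.567 by limma), 0.03 without VEH replicate 3 and 0.07 without BAY replicate 4. The estimated reads of Etv5 were not whole in most libraries, as for genes whose reads the quantification divided with another gene. Musk, Erbb3 and Etv5 were all highest in VEH replicate 3, and without that library 8 of the 9 members had a higher mean in BAY, with 3 under an unadjusted *P* value of 0.05 by limma. The whole table moved the same way, with 61.1% of all genes higher in BAY without that library against 55.2% with it, and with 1712 of the 2058 genes under that *P* value higher.

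Fold changes in muscle moved with the GC content of the transcripts among protein-coding genes that averaged 1 CPM or more. The 11204 protein-coding genes of known GC content with a mean of 1 CPM or more were split into 5 bins of equal size, and the median log2 fold change was -0.17, -0.05, 0.05, 0.15 and 0.27 from the poorest to the richest bin. In the richest bin, with 54.8% to 80.6% GC, 83.3% of the genes had a higher mean in BAY and 25.4% did so with an unadjusted *P* value under 0.05 by limma. Agrn (56.5% GC), Ache (58.7%), Rapsn (58.7%) and Dok7 (59.9%) belong to this bin, and Lrp4 (54.4%), Colq (53.8%) and Erbb3 (51.9%) to the next richest. Etv5 (48.4%) belongs to the middle bin and Musk (42.6%) to the poorest.

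When the median deviation of genes of like GC content was subtracted in each library, a step added after seeing the data, the log2 fold change of Agrn was 0.48 (SE 0.18, unadjusted *P* = 0.0223 by limma). That of Ache was 0.20 (unadjusted *P* = 0.182 by limma), that of Lrp4 0.15, that of Dok7 0.07 and that of Rapsn -0.06, so the higher mean of Rapsn turned. Colq was then at -0.79 (SE 0.36, unadjusted *P* = 0.0476 by limma), and Musk at -0.01. Of all genes under an unadjusted *P* value of 0.05, 68.6% were higher in BAY on the deposited values, 52.1% after median centring, 49.0% after quantile normalization and 50.4% after the GC correction. Agrn kept an unadjusted *P* value under 0.05 by limma in all 4 of these settings.

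**Figure D2:**
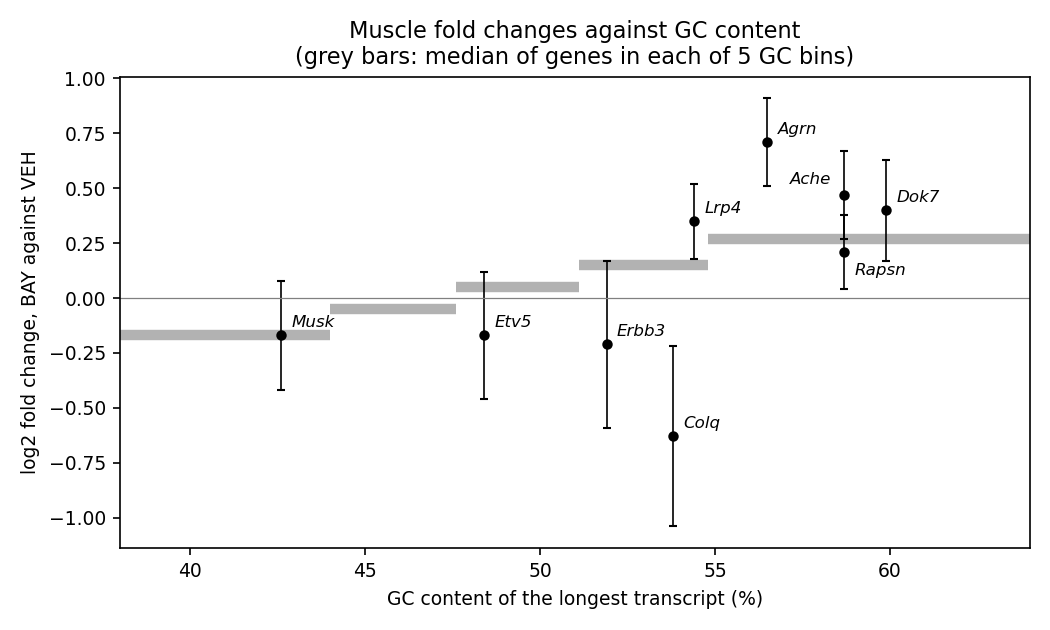
Log2 fold change of each member in muscle (BAY against VEH, points with SE bars) against the GC content of its longest transcript in percent, with grey bars at the median of all genes in each of 5 GC bins, the outer bins being drawn only from 38% to 64%. The grey medians climb from -0.17 to 0.27, Agrn and Lrp4 lie above and Colq below the bar of their bin by more than their SE.

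**Figure D3:**
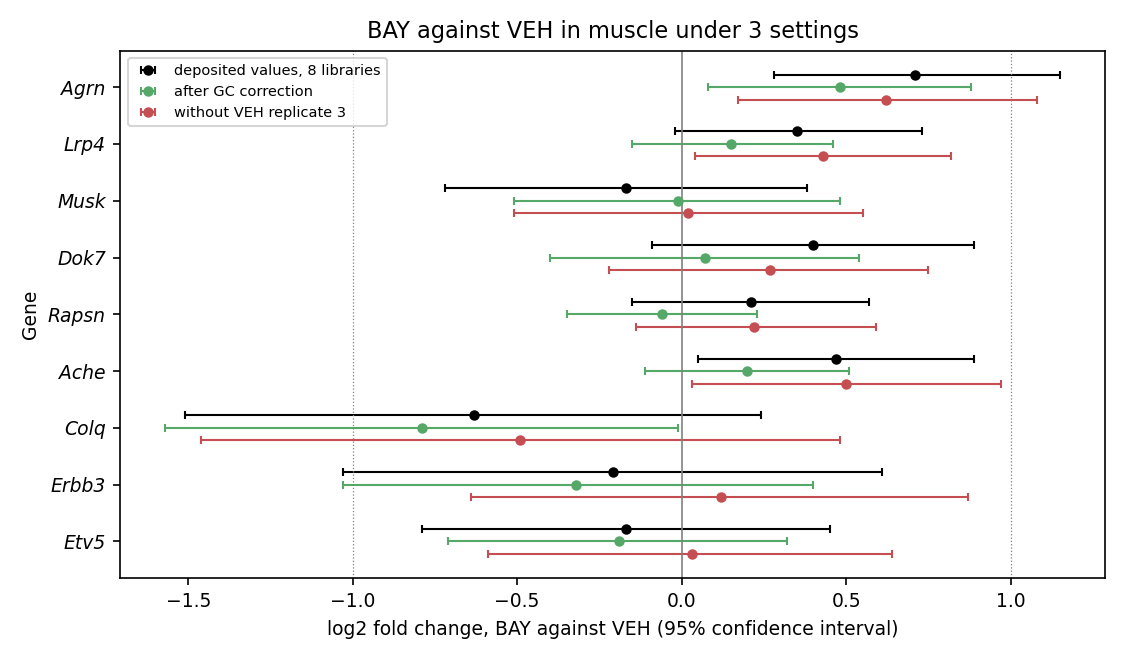
Log2 fold change (BAY against VEH) of the 9 genes in muscle with 95% confidence intervals from limma on the deposited values, after the GC correction and without VEH replicate 3, with dotted lines at a fold change of 2. The interval of Agrn lies above 0 in all 3, that of Ache in 2 of 3, and that of Colq lies below 0 only after the GC correction.

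To set genes side by side, values were divided by the union of all annotated exons of each gene. Per kb of this length, Rapsn (median 4.21 CPM per kb) and Ache (4.15) stood highest in muscle. Rapsn exceeded Ache in 4 of the 8 libraries, so their order is not resolved. Ache exceeded the next gene, Lrp4 (1.92 CPM per kb), in 8 of 8 libraries. Lrp4 exceeded Agrn (1.84 CPM per kb) in 5 of 8 libraries, and Agrn exceeded Dok7 (1.34 CPM per kb) in 7. The union of exons has 6970 bases for Dok7 and 9612 for Agrn, but their longest transcripts have 4030 and 8612. Their order therefore depends on the length used, and the order of other neighbours may depend on it too. Etv5 (0.851 CPM per kb), Musk (0.812), Erbb3 (0.562) and Colq (0.47) followed, each above the next in 6 or 7 of 8 libraries.

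Ratios between partners were compared within each library, where a common scaling of the library cancels. The log2 ratio of Ache to Colq was 3.04, 2.47, 2.20 and 2.49 in VEH and 3.77, 4.03, 3.12 and 3.69 in BAY, so that all 4 BAY ratios were above all 4 VEH ratios. The mean difference was 1.10 on the log2 scale (exact permutation *P* = 0.0286, the smallest possible, and 0.0858 after Benjamini-Hochberg adjustment over the 3 ratios). It was 0.99 after the GC correction (exact permutation *P* = 0.0571), and 0.98 to 1.28 with a library left out. Its exact permutation *P* over the 35 assignments of 7 libraries was 0.0571 without VEH replicate 2, 3 or 4 or BAY replicate 1, 2 or 4.

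The log2 ratio of Musk to Lrp4, the kinase and its co-receptor, was -0.89, -1.55, -0.90 and -1.58 in VEH and -1.88, -2.30, -1.58 and -1.23 in BAY, with overlap between the groups. The difference was -0.52 (exact permutation *P* = 0.143, adjusted *P* = 0.214), and -0.16 after the GC correction (exact permutation *P* = 0.629). It was -0.34 without BAY replicate 2, the smallest of the values with a library left out, which reached -0.69. The log2 ratio of Rapsn to Chrna1, the scaffold and the alpha subunit it anchors, was 0.75, -0.06, -0.13 and 0.54 in VEH and 0.56, 1.10, 0.66 and 0.48 in BAY. The difference was 0.43 (exact permutation *P* = 0.229, adjusted *P* = 0.229), and 0.14 after the GC correction (exact permutation *P* = 0.629). It was 0.29 to 0.58 with a library left out.

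**Figure D4:**
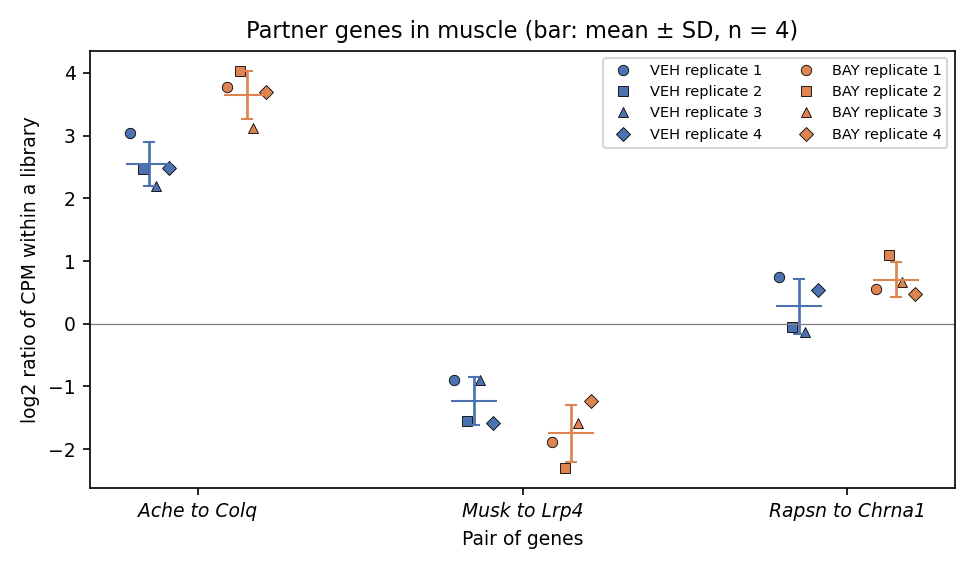
Log2 ratio of CPM of 3 partner pairs within each muscle library, with 1 point per mouse and bars for the mean ± SD (blue VEH, orange BAY, n = 4 each). For Ache to Colq the BAY points, 3.12 to 4.03, all lie above the VEH points, 2.20 to 3.04, and for the other pairs the groups overlap.

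Because BAY acts on AhR, the promoters of the members were searched for the core of the xenobiotic response element, GCGTG, on both strands. Promoter sequences (250 bases before to 50 after the start, from RefSeq on GRCm38.p6 and placed in mm39 by exact match) were at hand for 5 members with 8 promoters in all: Musk, Dok7, Agrn, Ache and Etv5. The core was found in the Agrn promoter nearest to the upstream end of the gene, in the Ache promoter and in both Dok7 promoters, and in neither Musk nor Etv5. It occurs in 32.4% of all 32851 promoters of the same length. The member promoters with this core have 62.3% to 83.3% GC and those without it 52.0% to 74.0%. The share among promoters of like GC content was not computed, and binding of AhR was not tested. The core of the N-box, TTCCGG, the Ets site of several synaptic genes, was in none of the 8 promoters and in 14.9% of all promoters, and the E-box, CANNTG, was in 5 of the 8 and in 72.3% of all. No match says only that these letters are not in this window.

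The Agrn and Ache promoters are shown because these genes had unadjusted *P* values under 0.05 in muscle. Capitals mark the GCGTG core, written CACGC where it lies on the other strand, and no core shown overlaps an E-box.
Agrn promoter, chr4:156281896-156282195, minus strand, 83.3% GC, with 2 cores: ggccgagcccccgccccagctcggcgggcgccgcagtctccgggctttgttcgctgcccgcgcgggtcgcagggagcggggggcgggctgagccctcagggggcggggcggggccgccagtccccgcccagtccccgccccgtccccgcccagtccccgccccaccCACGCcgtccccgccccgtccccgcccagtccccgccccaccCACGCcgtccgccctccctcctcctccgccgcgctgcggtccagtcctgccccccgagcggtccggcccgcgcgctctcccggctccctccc
Ache promoter, chr5:137286266-137286565, plus strand, 74.0% GC, with 1 core: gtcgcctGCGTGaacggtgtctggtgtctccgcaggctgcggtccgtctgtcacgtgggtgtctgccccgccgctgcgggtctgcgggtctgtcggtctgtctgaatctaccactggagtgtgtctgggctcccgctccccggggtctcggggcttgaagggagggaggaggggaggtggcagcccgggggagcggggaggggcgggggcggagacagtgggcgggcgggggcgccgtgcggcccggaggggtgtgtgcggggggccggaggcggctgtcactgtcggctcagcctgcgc

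Other genes of the junction were counted by list. The 5 acetylcholine receptor subunit genes had 2 higher and 3 lower means and none under an unadjusted *P* value of 0.05 by limma, with a median log2 fold change of -0.22 against 0.06 over all genes. Chrna1, the alpha subunit, had a log2 fold change of -0.22 (SE 0.28). The neuregulin, ErbB and Ets list (11 of 12 measured, median -0.17) and the list of 11 denervation response genes (median 0.15) also held none under an unadjusted *P* value of 0.05 by limma. Of the denervation genes, 8 had a higher mean log2 value in BAY, against 55.2% of all muscle genes. Among these 8, Sln, Ncam1 and Myh3 had a lower mean CPM in BAY, and Sln had no read in VEH replicate 1. Without VEH replicate 3 the medians of these 3 lists were -0.07, 0.03 and 0.35 in the same order, against 0.12 over all genes, and Myh8, the perinatal myosin heavy chain, was higher under that *P* value. After the GC correction the medians were -0.20, -0.09 and 0.02, and without VEH replicate 1 they were -0.47, -0.18 and 0.05, with none under it in either.

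Of 20 signalling partners of agrin, LRP4 and MuSK, 2 were higher and 2 lower at an unadjusted *P* value under 0.05 by limma, and the median log2 fold change was 0.05. That level was passed in either direction by 9.79% of all muscle genes. It was passed by 13.5% of the protein-coding genes with read numbers in the range of the members. Dvl1, a Dishevelled protein that binds MuSK, was higher by 0.48 (SE 0.13, unadjusted *P* = 0.00221 by limma), and Abl1, a tyrosine kinase, by 0.52 (SE 0.16, unadjusted *P* = 0.00567 by limma). Cdc42 was lower, at -0.59 (SE 0.18, unadjusted *P* = 0.00593 by limma), as was Rhoa, at -0.44 (SE 0.16, unadjusted *P* = 0.0162 by limma), while Rac1, like these a small GTPase that remodels actin, was at -0.19 (SE 0.14, unadjusted *P* = 0.211 by limma). After the GC correction Dvl1 was at 0.21 (unadjusted *P* = 0.0408 by limma), Abl1 at 0.28 (unadjusted *P* = 0.0372 by limma), Cdc42 at -0.40 and Rhoa at -0.33, and 3 of this list were higher and 3 lower at that level. Without VEH replicate 3, 4 were higher (Cttn and Macf1 joining Dvl1 and Abl1) and 2 lower, and the median was 0.10.

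Of 19 genes of the synaptic basal lamina and postsynaptic scaffold, 3 were higher at an unadjusted *P* value under 0.05 by limma and none was lower on the deposited values. The median log2 fold change was 0.05. Of all muscle genes, 6.71% were higher at that level and 9.79% passed it in either direction. Lama5, the laminin alpha 5 chain of the basal lamina, gave 31.1, 48.0, 27.7 and 37.9 CPM in VEH and 68.5, 56.1, 65.7 and 60.2 CPM in BAY, with no overlap between the groups. Its log2 fold change was 0.82 (SE 0.16, unadjusted *P* = 0.000178 and adjusted *P* = 0.206 by limma), and 0.49 (unadjusted *P* = 0.00703 by limma) after the GC correction. Hspg2 (perlecan, which binds the collagen tail of acetylcholinesterase) and Utrn (utrophin) were higher by 0.42 and 0.28. After the GC correction Hspg2 was at 0.09 (unadjusted *P* = 0.334 by limma), while Utrn was at 0.26 (unadjusted *P* = 0.0283 by limma). Without VEH replicate 1 Utrn was at 0.21 (unadjusted *P* = 0.116 by limma). After the GC correction 2 genes of the list were higher and 1, Dag1 (dystroglycan), was lower at an unadjusted *P* value under 0.05 by limma. The median of the list was then 0.02, and it was 0.20 without VEH replicate 3. The 5 endothelial cell markers summed to 165 to 193 CPM in VEH and 172 to 215 CPM in BAY. Of these markers 3 were higher in BAY, and 1 of the 5 had an unadjusted *P* value under 0.05 by limma. Their part in the values of this list was not tested. No gene of any list passed an adjusted *P* value of 0.05 by limma.

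The mean of the z-scored members over the 8 muscle libraries was lowest in VEH replicate 1 (-1.26) and highest in BAY replicate 1 (0.59). Of 7565 other protein-coding genes that averaged 5 CPM or more, those with the closest pattern by Pearson correlation over the 8 libraries were Ano6 (0.99), Atxn2 (0.979), Fam160a2 (0.975), AU022252 (0.97) and Ufsp1 (0.97). The 8 points share their libraries, depth and GC pattern, and VEH replicate 1 weighs most in all of these values. Among the members, Rapsn and Agrn (0.85), Rapsn and Ache (0.82) and Dok7 and Agrn (0.80) were the most alike, all GC-rich genes, and Musk and Dok7 (-0.42) the least.

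Ufsp1 lies 162 bases from Ache on the same strand and Srrt 704 bases away on the other. Srrt was higher in BAY by 0.49 (SE 0.14, unadjusted *P* = 0.00401 by limma), and by 0.26 after the GC correction (unadjusted *P* = 0.0609 by limma). Ufsp1 differed by 0.37 (SE 0.30, unadjusted *P* = 0.231 by limma). Gm13778, opposite to Rapsn, had at most 2 reads in any muscle library. The other annotated overlaps or neighbours within 1 kb are Gm68860 at Musk, Gm46878 at Agrn, Gm55028 and Gm49387 at Colq, Gm57304 and Mir8116 at Ache, Gm61225 and Gm59753 at Etv5, and Mir6917 and Gm66062 at Erbb3, none with values used here. Up to 1119 exon bases of Ache lie opposite Gm57304, up to 636 of Etv5 opposite Gm59753, and up to 199 of Colq are shared with Gm49387 on the same strand. Whether counting used the strand is not stated in the sources used here, so reads of such stretches cannot be told apart.

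Cortical bone, which holds no neuromuscular junction, was set beside muscle without a test between tissues, since the tables were normalized separately. No member had an unadjusted *P* value under 0.05 by limma in bone, where 0.64% of all genes did, and each of those also reached a fold change of 2. Rapsn aside, which had few reads, the log2 fold change of the members ran from -0.67 (Lrp4) to 1.23 (Colq) against a median of 0.84 over all bone genes, with standard errors from 0.66 upwards. Without VEH replicate 1 the median of all bone genes was -0.09, Colq was at 0.09 and Ache at 0.01 (from 0.74). These 8 members then ran from -0.96 (Lrp4) to 0.57 (Dok7). Dok7, at 0.81 with all libraries, was lower still without BAY replicate 4, at 0.49. Depth and composition differed between bone libraries of 1 group. The 10 osteoblast and osteocyte markers summed to 22000, 15800, 15200 and 4760 CPM in VEH replicate 3, BAY replicate 3, VEH replicate 4 and VEH replicate 1, and to 1090 to 1600 CPM in the other 4. The 10 muscle fibre markers summed to 40900, 37600 and 9880 CPM in BAY replicate 2, BAY replicate 1 and VEH replicate 1, above the bone markers of the same libraries, and to 49.5 to 1420 CPM in the other 5.

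The level of 1135 olfactory receptor genes, which bone is not expected to use, was taken as a background per kb of exon. Its median was 0.0506 CPM per kb in VEH replicate 1 and between 1.26 and 8.65 in the other 7 libraries. In VEH replicate 1 this is close to 0, which makes multiples of it large, and over the mean of the same genes (0.13 CPM per kb) Lrp4 stood at 61.3 times and Agrn at 11.0 times. Lrp4, which osteocytes also make as a partner of sclerostin, stood above it in VEH replicate 1 (157 times), VEH replicate 3 (21.5 times), BAY replicate 3 (10.5 times) and VEH replicate 4 (4.77 times), the libraries with the highest bone marker sums. In the other 4 libraries it was 0.867 to 2.63 times the background.

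Lrp4 gave 85.4, 82.9, 291 and 277 CPM in bone of VEH replicates 1 to 4 and 74.7, 55.4, 266 and 80.6 CPM of BAY replicates 1 to 4. The high values were those of VEH replicates 3 and 4 and BAY replicate 3, which had the highest sums of bone markers. Its log2 fold change was -0.67 (SE 0.67, unadjusted *P* = 0.333 by limma). Agrn gave 13.7, 21.2, 42.2 and 45.1 CPM in VEH and 17.4, 12.8, 39.7 and 16.1 CPM in BAY, highest in the same libraries. Against the olfactory receptor median Agrn stood at 28.1 times in VEH replicate 1, 3.49 times in VEH replicate 3 and 1.75 times in BAY replicate 3, and at 0.194 to 0.868 times in the other 5. Its log2 fold change in bone was -0.49 (SE 0.66, unadjusted *P* = 0.473 by limma). With a library left out, the bone values ran from -1.16 to -0.37 for Lrp4 and from -0.83 to -0.24 for Agrn, and after the GC correction they were -1.12 and -0.86.

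Musk, Dok7, Colq and Erbb3 were at 0.229 to 1.04 times the olfactory receptor median in the bone libraries other than VEH replicate 1, and Ache and Etv5 at 0.323 to 1.93 times. In VEH replicate 1, with its low background, Colq was at 1.05 times, and Erbb3 (5.41), Musk (8.11), Ache (12.0), Rapsn (14.7), Dok7 (15.9) and Etv5 (17.1) stood above it. Rapsn, one of the pair with the highest level per kb in muscle, had the lowest in bone, with 11, 3, 1 and 0 reads in VEH and 7, 9, 0 and 0 reads in BAY. The 3 libraries with no read allow up to 3 reads, or 2.18 CPM in VEH replicate 4, 1.53 CPM in BAY replicate 3 and 3.22 CPM in BAY replicate 4, counting error only. Its fitted fold change in bone depends on the offset and is no measure of a difference. The libraries with the most Rapsn reads, VEH replicate 1, BAY replicate 2 and BAY replicate 1, were those with the highest muscle fibre markers, and the part of muscle tissue in these values was not tested.

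**Figure D5:**
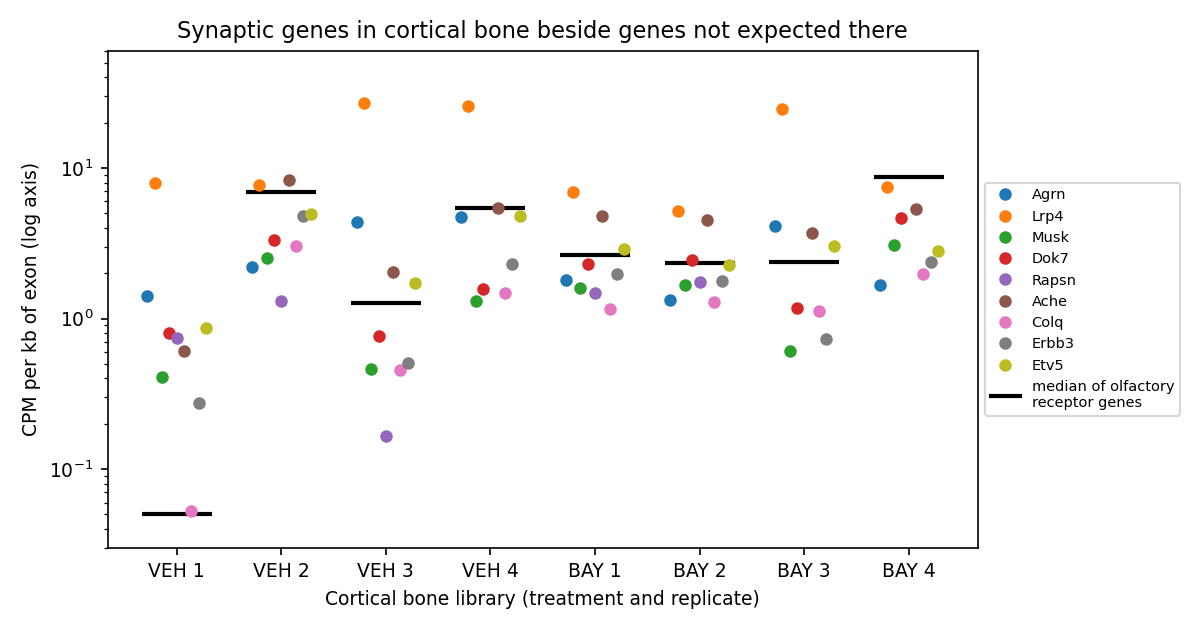
CPM per kb of exon of the 9 genes (coloured points) in each cortical bone library on a log axis, with a black line at the median of 1135 olfactory receptor genes in the same library and libraries with no Rapsn read left without its point. Lrp4 lies clearly above the line in VEH replicates 1, 3 and 4 and BAY replicate 3, and most other members lie at or below it outside VEH replicate 1.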

How the data were processed

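After base trimming, the authors mapped reads to mm39 with STAR (version 2.7.8a) and assigned them to Ensembl release 104 genes by Partek's E/M algorithm. They deposited log2 values of CPM plus an offset, 1 library per mouse. The lowest values put the offset at 0.0004 in muscle and 0.0001 in bone. Muscle libraries were stranded, and whether counting used strand is not given in the sources used here. Reads were recovered from the steps between low values, of which 81.5% to 88.6% up to 50 reads were whole within 0.02.

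Each tissue was fitted with limma (version 3.58.1, R version 4.3.3), BAY against VEH, on the deposited log2 values, with eBayes and a mean-variance trend, no filter and two-sided tests, adjusted by Benjamini-Hochberg over all genes. Calling a gene took a fold change of 2 or more together with an unadjusted P value below 0.05. Single members and 3 ratios were tested by exact permutation, two-sided. The fits were tested on simulated data. GC content came from the longest GENCODE M39 transcript (99.4% of muscle genes). The replicate numbers do not pair the mice, and no libraries agreed within sampling noise. Mice were separate animals. No library was left out, and no column of another sample was found.

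The members, lists and tests were chosen with earlier results of these data known. Named are all members, up to 4 genes per list under an unadjusted P value of 0.05 in muscle, the 5 genes most alike in pattern, and overlapping genes or neighbours within 1 kb. Outside that rule, Chrna1 is named as partner of a ratio, and Rac1, Sln, Ncam1 and Myh3 for comparison. Some list genes that passed only in another setting are named too (Cttn, Macf1, Myh8 and Dag1). From the basal lamina and scaffold list, 1 gene is not reported here and is left out of the counts of that list. Depth limits precision, and floors of 3 reads cover counting error only. Alternatives were pseudocounts of 1 and 0.1 CPM, keeping only genes that average 1 CPM or more, median centring, quantile normalization, no trend, voom on recovered reads, array weights, the replicate block and each library left out, with the GC correction in 20 bins added after seeing the data.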

Additional observations from a re-analysis of the deposited data

Results flagged for a closer look

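A gap between the highest or lowest library and its neighbour that took up more than the 95% critical share (Dixon) of the range of a group of 4 was found in 7 of 52 groups examined. Only some marker sets were examined, on the CPM scale, and the groups share libraries. The count therefore cannot be set against a rate by chance. In muscle, Musk of VEH replicate 3 was the highest of its group at 3.45 on the log2 scale, with a gap of 0.927 of the range. Lrp4 of VEH replicate 1 was the lowest of its group at 3.60 (gap 0.884), and Lrp4 of BAY replicate 1 the highest of its group at 4.72 (gap 0.883). The summed adipocyte markers of VEH replicate 3 came to 328 CPM (gap 0.939), and its summed fibroblast markers to 173 CPM (gap 0.843). In bone, the summed muscle fibre markers of VEH replicate 1 were the highest of the VEH group at 9880 CPM (gap 0.979), and the summed osteoblast and osteocyte markers of BAY replicate 3 the highest of the BAY group at 15800 CPM (gap 0.97). What these gaps come from was not tested.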

How the results depend on the processing

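In muscle, 510 genes were called on the deposited values, 52 with log2(CPM + 1), 193 with a filter at a mean of 1 CPM, and 448 to 567 with a library left out. Members under an unadjusted P value of 0.05 by limma numbered 2, with 1 without the trend, 1 with the replicate block (Ache at an unadjusted P = 0.0573 and Agrn at an unadjusted P = 0.0107 by limma), 3 with quantile normalization and 3 with array weights (Lrp4 added, at an unadjusted P = 0.0494 and an unadjusted P = 0.0353 by limma), and 1 to 3 with a library left out. The replicate numbers did not pair the muscle libraries (correlation of deviations -0.103 to 0.035, 1 of 8 libraries most like its own number) or all bone libraries (-0.084 to 0.486, 3 of 8), and the replicate block changed no other member. Rapsn turned to -0.06 with the GC correction and Etv5 to 0.04 with array weights. Leaving out a library put Musk at -0.32 to 0.05, Etv5 at -0.34 to 0.07 and Erbb3 at -0.53 to 0.12 on the log2 scale. The log2 ratio of Ache to Colq differed by 0.99 with the GC correction (exact permutation P = 0.0571), by 1.10 with the replicate block (paired sign flips, exact P = 0.125, the smallest possible) and by 0.98 to 1.28 with a library left out. In bone, 249 genes were called, and 82 with the filter, 430 with median centring, 705 with quantile normalization, 408 without the trend, 1447 with voom, 901 with array weights, 463 with the GC correction and 115 to 1116 with a library left out. Bone values that changed sign were Rapsn at 0.14 with log2(CPM + 1) and 0.11 with voom, and with array weights Colq at -0.25 and Ache at -0.1. Etv5 in bone turned to -0.41 with median centring, -0.37 with quantile normalization, -0.32 with array weights and -0.37 with the GC correction, and Erbb3 to -0.08, -0.32, -0.37 and -0.02 in the same order, with ranges of -0.34 to 0.51 and -0.18 to 1.2 over libraries left out. No bone member passed an unadjusted P value of 0.05 by limma in any of these settings. Causes were not tested. Promoter shares with the 250 bases before the start only were 28.2% for GCGTG, 12.0% for TTCCGG and 66.2% for CANNTG. Depth limits Colq in muscle and Rapsn in bone most.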
